A study of Homo sapiens with 4 samples.

Results

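The large subunit of the cytosolic ribosome is built from ribosomal RNAs and many small proteins, and 45 genes that encode these proteins are described here. The members were taken by gene symbol from the deposited count tables, where all 45 were found among 19192 genes. The selection rule itself uses gene symbols and no measured value, although it was written with earlier results of these data known. They do not cover every protein of the subunit.

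The data come from SW480 cells, an established human line from a colorectal adenocarcinoma, labelled as intestinal epithelial cells. Wild-type cells were set against cells labelled as lacking both copies of IMP1, the RNA-binding protein encoded by IGF2BP1. For each genotype there was 1 library of ribosome-protected fragments (footprints, here RPF) and 1 library of fragmented total RNA, each prepared from 3 pooled culture plates. No treatment is named for either genotype, and whether the edited cells are 1 clone is not given in the sources used here. One label disagrees with the others: SW840 is entered as the cell line of the wild-type RNA sample. With 1 cell population per genotype, the deletion, the history of the clone and the culture cannot be told apart, and no difference below has a replicate check or a p-value.

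Ribosomal proteins are made in step with each other and with ribosomal RNA, since the subunits need them in fixed proportions. Most vertebrate mRNAs for them begin with a cytosine followed by a run of pyrimidines, the terminal oligopyrimidine (TOP) motif. TOP mRNAs move on and off ribosomes together with nutrient and growth signals through mTORC1 and the binding protein LARP1. IMP1 binds many mRNAs in the cytoplasm and affects their stability, localization and translation.

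The targeted gene was read first. IGF2BP1 had 598 RNA reads in wild-type cells and 571 in the cells labelled as knockout, a log2 RNA change of 0.08 with a 95% counting interval of -0.08 to 0.25. Its footprints numbered 285 and 149, a log2 RPF change of -0.93 with an interval of -1.23 to -0.65. Reads summed over a gene cannot show a lost exon, so the mutant cells are called knockout-labelled throughout. Library totals were 5551479 and 4932388 reads for RNA and 3782874 and 3778316 for RPF, wild type first, and this order is kept for all pairs of reads below. The epithelial genes EPCAM, KRT8, KRT18 and KRT19 were abundant in all 4 libraries. The intestinal gene VIL1, at 160 and 2 RNA reads and 335 and 0 footprints, was near or at 0 in the knockout-labelled libraries. CDX1, at 2 and 0 RNA reads and 0 footprints in both genotypes, was barely detected in either. The adhesion gene CDH1 was higher in the knockout-labelled libraries, at 83 and 286 RNA reads and 88 and 275 footprints. In RNA, VIL1, CDX2, KRT8 and KRT18 were called lower by the rule given below and CDH1 higher, and EPCAM and KRT19 were neither. Summed over the 8 epithelial and intestinal markers, the scaled ratio of the knockout-labelled to the wild-type library was 0.672 for RNA and 0.799 for RPF. The 8 markers of fibroblasts, leukocytes and endothelium summed to 50 and 68 RNA reads and 2 and 31 footprints, with DCN, PTPRC and CD3E at 0 in all 4 libraries. Their scaled ratio was 1.51 (1.03 to 2.22) for RNA and 15.5 (3.94 to 134) for RPF, each from very few reads. The part of these marker differences in the results below was not tested.

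To show what the members share at their first transcribed bases, 30-base windows around the RefSeq start of selected genes are printed on the sense strand, 5′ to 3′ (RefSeq annotation, GRCh38.p14). Capitals mark an unbroken run of C and T that opens with a C at the start base, which is preceded by 10 bases. The first 7 genes lie among those with the largest differences in footprints or footprints per RNA, and the next 5 had small footprint differences. RPL32 and RPL19 have no such run at their RefSeq starts, and their log2 RPF changes were 1.23 and 1.13. The 10 members found without the run ranged from 0.19 to 1.23.
RPL26: gcgtgtagttCTCTTCCCTTTTgcggccat
RPL24: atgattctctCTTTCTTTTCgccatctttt
RPL39: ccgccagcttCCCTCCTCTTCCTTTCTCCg
RPL13A: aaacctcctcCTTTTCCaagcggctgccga
RPL11: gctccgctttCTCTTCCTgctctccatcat
RPL18: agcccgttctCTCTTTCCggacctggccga
RPL41: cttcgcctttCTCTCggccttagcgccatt
RPL35: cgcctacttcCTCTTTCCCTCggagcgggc
RPL22: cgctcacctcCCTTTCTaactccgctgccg
RPLP1: ggcgcgagagCCCCTTTCCTCagctgccgc
RPLP2: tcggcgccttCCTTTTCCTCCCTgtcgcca
RPL7A: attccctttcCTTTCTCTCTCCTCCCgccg
RPL32: ggtgacccttgacctcctgggatcgcatct
RPL19: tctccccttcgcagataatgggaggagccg
The window of RPL26 is at chr17:8383174-8383203 on the minus strand, that of RPL32 at chr3:12840431-12840460 on the minus strand, that of RPL41 at chr12:56116623-56116652 on the plus strand and that of RPL35 at chr9:124861938-124861967 on the minus strand. A C at the start followed by at least 4 pyrimidines was found in 28 of the 38 members with a promoter entry (73.7%), against 5.14% of 27305 genes in the same table. Among these 28 the run was 5 to 19 bases long with a median of 8, and the longest was that of RPL39. The run stood at the start of genes with large and with small footprint differences alike, as the windows of RPL26 and RPL35 show. The 28 genes with the run had a median log2 RPF change of 0.66 and the 10 without it 0.72; their median log2 changes in footprints per RNA were 0.61 and 0.63. A start base in an annotation is not a mapped cap site. When the run was allowed to open within 10 bases of the start, 35 of 38 members (92.1%) and 38.4% of all genes held it. These included RPL4, RPL9, RPL10A, RPL19 and RPL32 of the 10 without the run at the start base. The medians of the 28 and the 10 therefore cannot compare genes with and without a TOP start. No entry was matched for RPL5, RPL7, RPL8, RPL23, RPL23A, RPL30 and RPL37.

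All 45 members were abundant. In wild-type RNA they ranged from 1111 reads for RPL17 to 9896 for RPL41 with a median of 4022, and in wild-type footprints from 646 for RPL41 to 6491 for RPL35 with a median of 2522. All 45 therefore passed the minimum of 50 reads over both libraries of a kind in every comparison. Among the 500 genes with the most reads, 43 members stood in the wild-type RNA library and 43 in the knockout-labelled one, while the footprint libraries held 34 in wild-type and 43 in knockout-labelled cells. Their summed share of all reads was 3.47% and 3.39% of the RNA libraries, and it was 3.05% (exact 95% interval 3.04 to 3.07) and 4.49% (4.47 to 4.51) of the footprint libraries. The members thus took up a larger share of footprints in the knockout-labelled cells at nearly the same share of RNA. In bulk libraries fewer cells of a kind and less RNA per cell cannot be told apart.

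**Figure D1:**
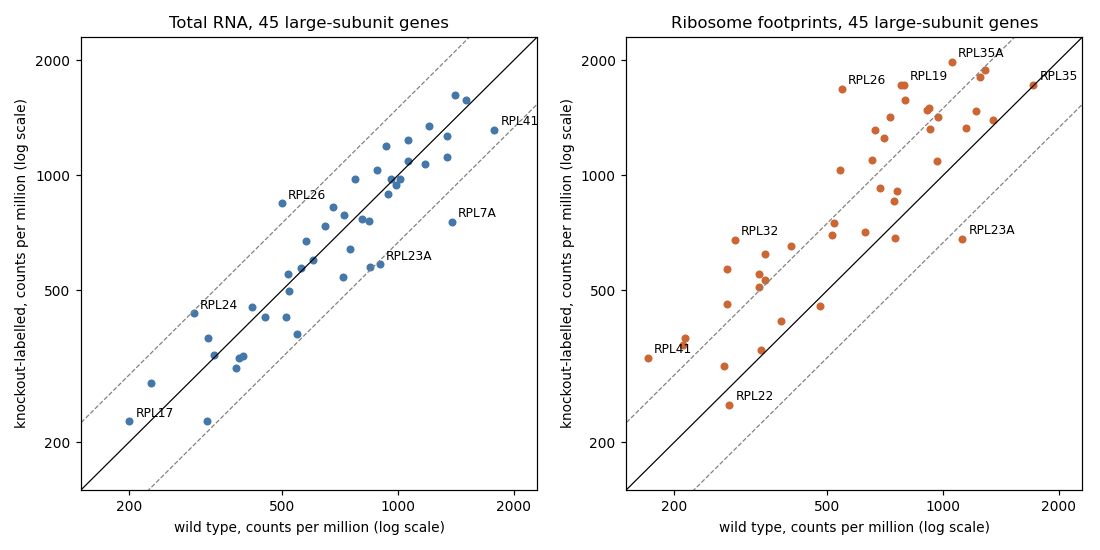
Level of each of the 45 large-subunit genes in CPM (reads scaled to a common library total, log axes) in knockout-labelled against wild-type cells, for total RNA (left) and footprints (right), with 1 point per gene, a solid line of equality and dashed lines at 1.5-fold. RNA points lie around the line, with medians of 724 and 735 CPM, and most footprint points lie above it, with medians of 667 CPM in wild-type and 909 CPM in knockout-labelled cells.

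For each gene the RNA change and the RPF change are log2 ratios of the knockout-labelled to the wild-type library, and the change in translational efficiency (TE) is the RPF change minus the RNA change. Each has a 95% interval that covers counting error only. A gene was called where it differed by 1.5-fold or more and its interval left out no change. RNA of the members barely moved as a group. RPL26 was called higher, where 16.2% of 10875 genes were, and RPL7A and RPL23A lower, where 17.8% were; 42 were neither. The median RNA change was -0.02, beside -0.01 for all genes measured, with 22 members above 0 and 23 below, where 49.3% of all genes were above 0.

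Footprints showed another pattern. In RPF, 23 members were called higher against 19.0% of 9794 genes, and 1, RPL23A, was called lower against 20.1%. The median RPF change was 0.61, a 1.53-fold ratio, where the median of all genes was -0.00. Of the 45, 41 were above 0, against 49.7% of genes measured, and the exceptions were RPL22, RPL23A, RPL30 and RPLP2. The ratio reached 2-fold in 5 members, where 9.0% of all genes were called higher at 2-fold, and its highest value was 3.08. In TE, 25 members were called higher against 15.7% of 9598 genes, and 0 lower against 13.9%. The median TE change was 0.61, against 0.03 for all genes, with 41 members above 0 and 52.1% of all genes above 0. Those below 0 in TE were RPL22, RPL23A, RPL30 and RPL35.

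The members also varied less among themselves than genes at large. The SD of the RPF change was 0.45 over the 45 members and 0.89 over all genes measured; for RNA it was 0.32 and 0.79, and for TE 0.38 and 0.70. The members are deeply counted and many other genes are not, and the part of counting error in the wider spread was not tested. Across the 45 genes, which share the same 4 libraries, RNA and RPF changes had a Pearson r of 0.54 and a Spearman rho of 0.46, and across 9598 genes the values were 0.63 and 0.54. These are descriptions across genes, which are not independent replicates.

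**Figure D2:**
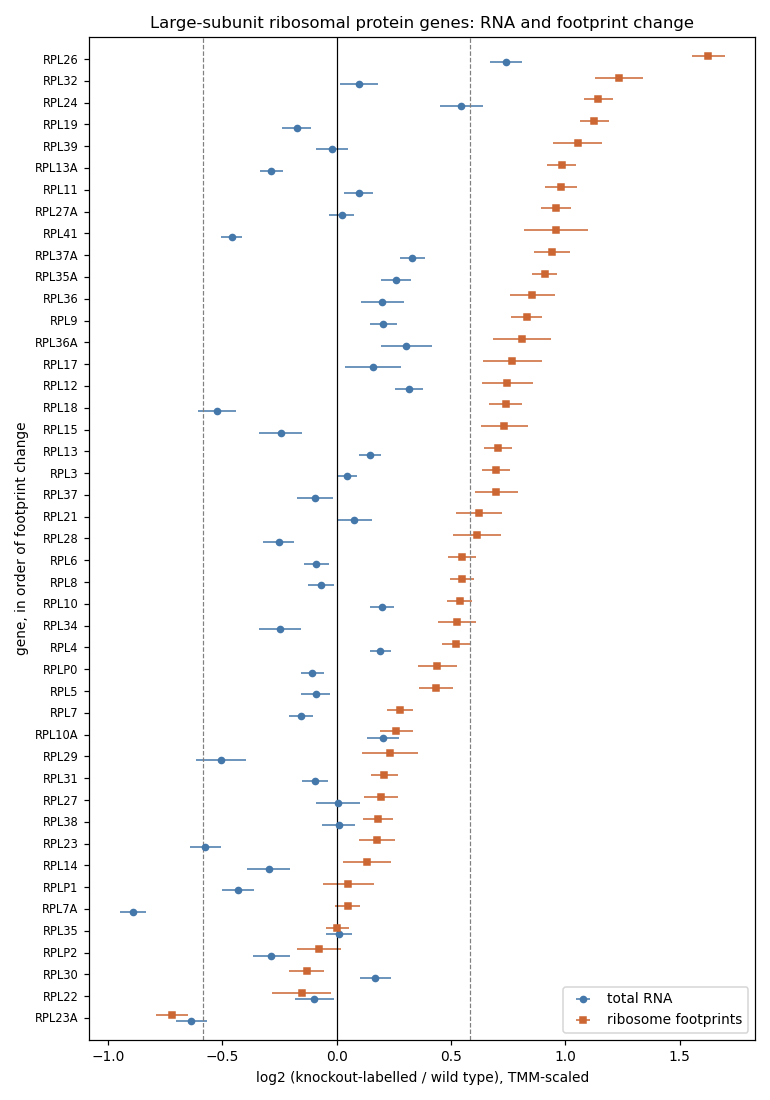
Log2 change (knockout-labelled over wild type) in total RNA (circles) and footprints (squares) of the 45 genes, with 95% counting intervals as bars and dashed lines at 1.5-fold, in order of footprint change. RNA changes lie around 0 with a median of -0.02 and footprint changes mostly to the right with a median of 0.61; RPL26 has the highest footprint change and RPL23A the lowest.

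Calls in the 3 quantities sorted the members into few patterns. The share of all genes with each pattern was not counted, so the numbers describe the members only. RPL26 alone was called higher in RNA, RPF and TE. A further 18 were called higher in RPF and TE with no RNA call, namely RPL3, RPL9, RPL11, RPL13A, RPL15, RPL17, RPL18, RPL19, RPL24, RPL27A, RPL28, RPL32, RPL35A, RPL36, RPL37, RPL37A, RPL39 and RPL41. RPL12, RPL13, RPL21 and RPL36A were called higher in RPF but fell short of the threshold in TE. RPL6, RPL8, RPL23, RPL29 and RPL34 were called higher in TE only. No call in any quantity was made for 15 members, which include all of RPLP0, RPLP1 and RPLP2 of the stalk. Many of these genes lie close to the threshold, so the patterns are not separate classes: RPL28 was just inside in RPF at 0.61 and RPL8 just outside at 0.55.

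The catalytic core of the subunit was represented by RPL3, RPL4, RPL8 and RPL10, whose proteins reach towards the peptidyl transferase centre where peptide bonds form. Their median RNA, RPF and TE changes were 0.12, 0.54 and 0.48. RPL3, one of the first proteins to join the assembling subunit, had 8365 and 7769 RNA reads and 3443 and 5588 footprints. Its RPF change was 0.70 (0.64 to 0.76) and its TE change 0.65 (0.58 to 0.73), both called. RPL10, which is added late in the cytoplasm and is needed for the subunit to become active, had 5911 and 6103 RNA reads and 4709 and 6839 footprints. Its RPF change of 0.54 (0.48 to 0.59) and TE change of 0.34 (0.27 to 0.41) did not reach 1.5-fold. RPL4, which lines part of the exit tunnel, had similar values, with an RPF change of 0.52. RPL8, at the core of the centre, was called in TE at 0.62 (0.54 to 0.69). The 4 genes therefore differed from each other in RPF by less than 0.2 on the log2 scale.

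The P stalk recruits the elongation factors that drive the ribosome. It is formed by RPLP0 with the small acidic proteins RPLP1 and RPLP2, and RPL12 sits at its base. These 4 genes had a median RPF change of 0.25 and a median TE change of 0.46, and none was called in TE. RPLP0 had 7459 and 6242 RNA reads and 1942 and 2638 footprints, an RPF change of 0.44 (0.36 to 0.53) with a TE change of 0.55 (0.45 to 0.64). Of RPLP1 there were 4006 and 2676 RNA reads and 1272 and 1319 footprints, so its TE change of 0.48 (0.35 to 0.61) went with an RNA change of -0.43 (-0.50 to -0.36) and an RPF change of 0.05 (-0.06 to 0.16). RPLP2, with 2840 and 2098 RNA reads and 1804 and 1712 footprints, had an RPF change of -0.08 (-0.17 to 0.02). Footprints of both small stalk proteins thus stayed within counting error of no change. RPL12 differed from them: its 4288 and 4809 RNA reads and 1035 and 1737 footprints gave an RNA change of 0.32 and an RPF change of 0.75 (0.63 to 0.86), which was called.

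RPL5 and RPL11 join the 5S ribosomal RNA in a particle that docks on the subunit and that, when unassembled, binds the p53 regulator MDM2. RPL11 had 4022 and 3874 RNA reads and 2522 and 4976 footprints. Its RPF change was 0.98 (0.91 to 1.05) and its TE change 0.88 (0.79 to 0.98). RPL5 had 4490 and 3796 RNA reads and 2589 and 3499 footprints, where an RPF change of 0.43 (0.36 to 0.51) came with a TE change of 0.52 (0.43 to 0.62), neither of which was called. Both partners were higher in footprints, and their intervals did not overlap, RPL11 being the higher. Their RNA changes, 0.10 and -0.09, were small.

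Proteins of the exit tunnel and its rim held the highest and the lowest RPF change of the whole set. In RPF, 4 of 7 were called higher and 1 lower, where 19.0% and 20.1% of all genes were. RPL26, a rim protein (chr17:8377516-8383250, minus strand, GENCODE 29 on GRCh38), had 2769 and 4166 RNA reads and 2061 and 6362 footprints. Its RNA change was 0.74 (0.67 to 0.81), its RPF change 1.63 (1.55 to 1.70), which ranked 266 of 9794 genes, and its TE change 0.88 (0.79 to 0.98). It was the only member whose RNA was called higher, so its footprint difference joined a difference in RNA to one in footprints per RNA. RPL19, whose protein also bridges to the small subunit, had 4680 and 3734 RNA reads and 2984 and 6516 footprints, and its TE change of 1.30 (1.21 to 1.39) came with an RNA change of -0.17 (-0.24 to -0.11). RPL39, a very short protein in the tunnel wall, had 3336 and 2962 RNA reads and 1034 and 2148 footprints, with an RNA change of -0.02 (-0.09 to 0.05) and an RPF change of 1.05 (0.95 to 1.16). Both genes had about 2-fold more footprints at equal or slightly lower RNA.

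RPL17 had an RPF change of 0.77 (0.64 to 0.90), yet a readthrough gene, RPL17-C18orf32, holds its sequence, so how reads were split between the pair is uncertain. The rim proteins RPL31 and RPL35, which lie where chaperones and targeting factors dock, were not called. RPL35 had 5312 and 4822 RNA reads and 6491 and 6511 footprints, with changes of 0.01 (-0.04 to 0.07) in RNA, 0.00 (-0.05 to 0.05) in RPF and -0.01 (-0.08 to 0.07) in TE. It had the most footprints of all members in wild-type cells and was the member with the RPF change nearest to 0.

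RPL23A, the docking protein for the signal recognition particle, went the other way (chr17:28719393-28724359, plus strand). It had 4972 and 2883 RNA reads and 4246 and 2579 footprints. The RNA change was -0.63 (-0.70 to -0.57), the RPF change -0.72 (-0.79 to -0.65) and the TE change -0.08 (-0.18 to 0.01). RNA and footprints of RPL23A were lower by similar amounts, so footprints per RNA stayed near no change. RPL23A has 91 pseudogenes named for it in GENCODE 29, the most of any member, and how reads shared with such copies were counted is not given in the sources used here. RPL21, RPL7 and RPL12 follow with 66, 61 and 50. Across the 45 members the RPF change and the number of named pseudogenes had a Pearson r of -0.33 and a Spearman rho of -0.10, and the part of shared reads in any single value was not tested.

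The face turned to the small subunit was represented by RPL23, RPL24, RPL30 and RPL41. RPL24, which forms a bridge between the subunits, had 1632 and 2144 RNA reads and 2946 and 6519 footprints. Its RNA change was 0.54 (0.45 to 0.64), its RPF change 1.15 (1.08 to 1.21) and its TE change 0.60 (0.49 to 0.71). RPL41, the shortest protein of the ribosome with a coding sequence of 75 bases, had 9896 and 6487 RNA reads and only 646 and 1256 footprints. RNA of RPL41 changed by -0.46 (-0.50 to -0.41) and its footprints by 0.96 (0.82 to 1.1), which gave the highest TE change of the members at 1.42 (1.27 to 1.56). These genes had the largest (RPL41) and the lowest (RPL30) TE changes of the 45. RPL30, with 3583 and 3627 RNA reads and 2833 and 2589 footprints, had an RPF change of -0.13 (-0.21 to -0.05) with a TE change of -0.30 (-0.40 to -0.20), short of the threshold. RPL23, the contact site of the anti-association factor eIF6, had 4697 and 2841 RNA reads and 2371 and 2682 footprints, with an RNA change of -0.57 (-0.64 to -0.51) and a TE change of 0.75 (0.65 to 0.86).

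At the exit site for tRNA, RPL10A forms the mobile L1 stalk and RPL36A lies close by. RPL10A had 3193 and 3308 RNA reads and 2865 and 3434 footprints, and its TE change of 0.06 (-0.04 to 0.16) was within counting error of none. RPL36A was called higher in RPF at 0.81 (0.68 to 0.94), but it shares sequence with the readthrough gene RPL36A-HNRNPH2 and its value is uncertain in the same way as that of RPL17.

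The 22 remaining proteins mostly coat the solvent side of the subunit. Of these, 13 were called higher in RPF and 15 in TE, where 19.0% and 15.7% of all genes were. Their median changes were 0.66 and 0.65. RPL32 had 2314 and 2230 RNA reads and 1087 and 2559 footprints. Its RNA change was 0.10 (0.01 to 0.18), its RPF change 1.23 (1.13 to 1.34) and its TE change 1.14 (1.00 to 1.27). After RPL26 it had the highest RPF change of the members. RPL13A, also known for a role outside the ribosome in silencing inflammatory mRNAs, had 7439 and 5495 RNA reads and 3009 and 5955 footprints, where an RPF change of 0.98 (0.92 to 1.05) came with a TE change of 1.27 (1.19 to 1.35). RPL18 had 3026 and 1896 RNA reads and 2474 and 4134 footprints, and its RNA change of -0.52 (-0.61 to -0.44) and RPF change of 0.74 (0.67 to 0.81) gave a TE change of 1.26 (1.15 to 1.37). RPL18, RPL13A and RPL41 were among the 20 members with an RNA change below 0 and RPF and TE changes above 0. Another 20 members were above 0 in RNA, RPF and TE. The shares of all genes with these sign patterns were not counted. An RNA change below 0 with an RPF change above 0 gives a TE change above 0 by construction. RPL27A, at 5895 and 5388 RNA reads and 2756 and 5362 footprints, had an RPF change of 0.96 (0.89 to 1.03) with an RNA change of 0.02 (-0.03 to 0.08). RPL15 had a TE change of 0.98 (0.84 to 1.11) and RPL35A, one of the genes mutated in Diamond-Blackfan anaemia, an RPF change of 0.91 (0.85 to 0.97).

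RPL7A (chr9:133348214-133351426, plus strand) was the member with the lowest RNA change. It had 7669 and 3722 RNA reads but 5104 and 5278 footprints. The RNA change of -0.89 (-0.95 to -0.84) thus stood beside an RPF change of 0.05 (-0.01 to 0.10), and the TE change was 0.94 (0.86 to 1.02). Fewer RNA reads at equal footprints placed RPL7A among the genes called in TE without any call in RPF. RPL29 had a similar combination: RNA changed by -0.51 (-0.62 to -0.40), RPF by 0.23 and TE by 0.74. RPL22, whose loss impairs T-cell development and raises its paralog RPL22L1 in other systems, had 2498 and 2102 RNA reads and 1051 and 946 footprints. Its changes were -0.10 (-0.18 to -0.01) in RNA, -0.15 (-0.28 to -0.02) in RPF and -0.05 (-0.21 to 0.10) in TE. RPL14, RPL27 and RPL38 also had small RPF changes, at 0.13, 0.19 and 0.18, but these were above 0, unlike that of RPL22. The remaining genes of the 22 had RPF changes between 0.28 for RPL7 and 0.94 for RPL37A.

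The TE level describes a gene within 1 genotype: it is the log2 ratio of footprint CPM to RNA CPM, less the median of all genes measured, so that 0 is the typical gene. In wild-type cells the members had a median TE level of -0.21, and 31 of 45 lay below 0, where 50.0% of genes lie by construction. In knockout-labelled cells the median was 0.31 and 13 lay below 0. The median thus passed from below the typical gene to above it, though members lay on both sides of 0 in each genotype. Their TE levels had a Pearson r of 0.87 and a Spearman rho of 0.79 between the genotypes over 45 genes. RPL41 was the lowest in both genotypes, at -3.50 and -2.12, and RPL24 the highest, at 1.29 and 1.86. RPL27 was next to RPL24 in wild-type cells at 1.06 and had 1.21 in knockout-labelled cells. Of the stalk genes, RPL12 had -1.61 and -1.22, RPLP0 -1.50 and -0.99, and RPLP1 -1.21 and -0.77, whereas RPLP2 was nearer to the typical gene at -0.21 and -0.04. RPL39 moved from -1.25 to -0.21 and RPL18 from 0.15 to 1.38. RPL22 stayed low at -0.81 and -0.90.

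A TE level also depends on which bases each kind of library can count, since footprints fall on coding sequence and RNA fragments on the whole transcript. The counted region was not given in the sources used here, so how far this enters the TE levels is not known. Coding sequence is 10.7% of the deposited RPL41 transcript. The wild-type TE level and the log2 coding share of the transcript had a Pearson r of 0.37 and a Spearman rho of 0.25 over the 45 members, and 0.30 and 0.29 over 9589 genes. Some deposited transcripts of members are long, such as 7686 bases for RPL37, so this share may not be that of the transcript in the cells. The TE change compares a gene with itself and does not use a length.

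**Figure D3:**
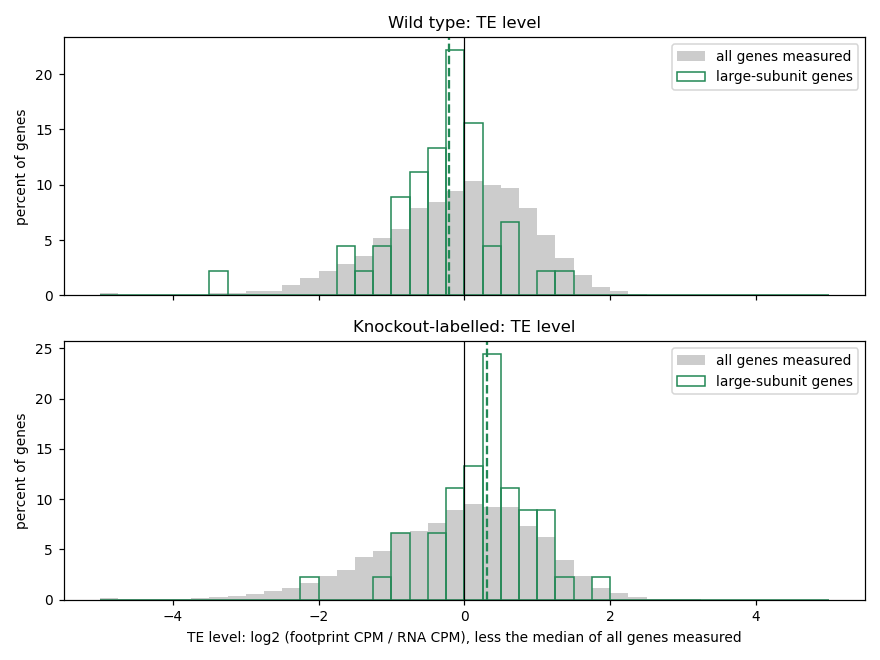
Percent of genes by TE level (log2 footprint CPM over RNA CPM, less the median of all genes) in each genotype, for all 9598 genes measured (grey bars) and the 45 large-subunit genes (outlined bars, dashed line at their median), with values beyond 5 on either side drawn in the end bins. The median of the large-subunit genes is -0.21 in wild-type and 0.31 in knockout-labelled cells.

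To compare levels between genes, CPM was divided by coding length in kilobases. Per kilobase of coding sequence, footprints ran from 382 CPM for RPL17 to 4650 CPM for RPL35 in wild-type cells, where RPL17 is counted without the 682 footprints given to its readthrough gene, and from 644 CPM for RPL14 to 6006 CPM for RPL35A in knockout-labelled cells. Although the subunit holds its proteins in fixed proportion, the SD of the log2 footprint level was 0.83 and 0.87, a typical spread of nearly 2-fold around the mean. RNA per kilobase of coding sequence had an SD of 0.94 and 0.93, which rested partly on RPL41 at 23768 and 17536 CPM, and without RPL41 it was 0.72 and 0.75. The next highest RNA levels were 3928 CPM for RPL39 in wild-type and 4310 CPM for RPL37A in knockout-labelled cells. RPL38 and RPL35 were neighbours at the top of the wild-type footprint levels, and RPLP0 and RPL12 were near the bottom. The stalk gene RPLP0 had 540 and 734 CPM per kilobase of coding sequence, and RPL12 had 553 and 929. Footprint and RNA levels per kilobase had a Pearson r of 0.61 and 0.68 across the 45 genes in the 2 genotypes, and both axes share the coding length.

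**Figure D4:**
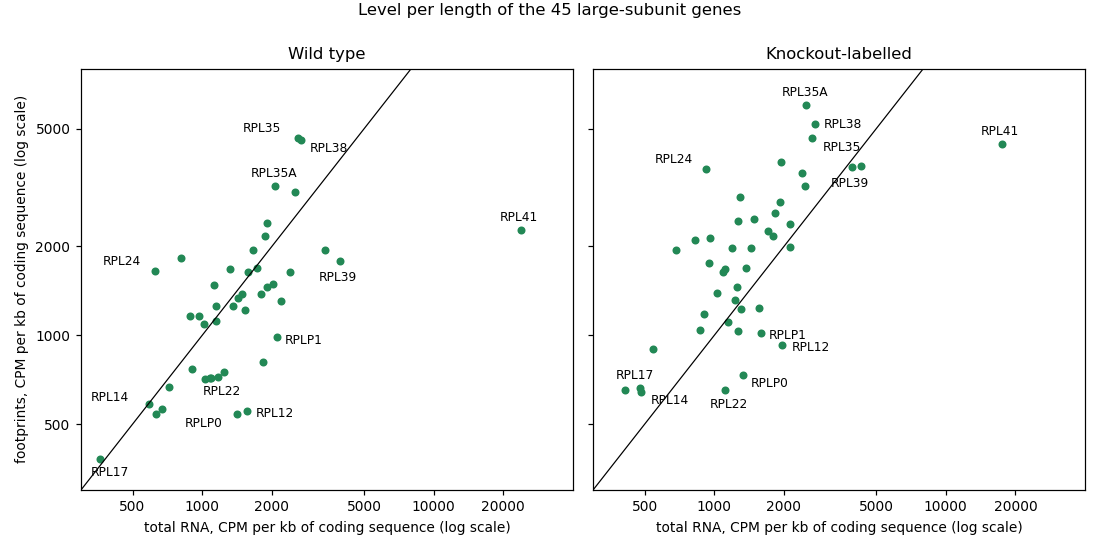
Footprint level against RNA level, each as CPM per kilobase of coding sequence on log axes, for the 45 genes in wild-type (left) and knockout-labelled cells (right), with the line of equality. RPL41 stands far to the right in both panels, at 23768 and 17536 CPM of RNA, and the cloud of points lies higher on the right.

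The small-subunit proteins, the other part of the cytosolic ribosome, gave much the same picture. Of 33 genes, 14 were called higher in RPF and 0 lower, and 18 were called higher in TE and 0 lower. For this and the later lists, the shares of all genes called higher and lower were 16.2% and 17.8% in RNA. They were 19.0% and 20.1% in RPF, and 15.7% and 13.9% in TE. Medians of the 33 genes were -0.08 in RNA, 0.55 in RPF and 0.62 in TE. Their summed reads had an RPF ratio of 1.5 (1.48 to 1.51), against 1.47 (1.46 to 1.48) for the large-subunit members, and an RNA ratio of 0.966 (0.959 to 0.973), against 0.963 (0.957 to 0.969). RPSA, which encodes a protein of the small subunit also known as a laminin receptor, had 8577 and 6086 RNA reads and 1974 and 4379 footprints. Its TE change was 1.49 (1.4 to 1.58), with an interval that overlapped that of RPL41 at 1.42 (1.27 to 1.56). RPS13 had an RPF change of 1.13 (1.07 to 1.18) and RPS18 of 1.08 (1.01 to 1.15). Their median TE level was -0.48 in wild-type and 0.21 in knockout-labelled cells.

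Other mRNAs with a TOP start, most of which encode translation factors, shared the TE difference but less of the RPF difference. Of 15 genes, 3 were called higher in RPF (EEF2, EEF1G and EEF1A1) and 0 lower, while 5 were called lower and 0 higher in RNA, and 8 were called higher in TE. Medians were -0.21 in RNA, 0.11 in RPF and 0.61 in TE. EEF2, the factor that moves the ribosome along the mRNA, had 14628 and 13090 RNA reads and 5631 and 10853 footprints, an RPF change of 0.95 (0.90 to 0.99). NPM1, a nucleolar chaperone, had 5940 and 2739 RNA reads and 7946 and 5581 footprints, so RNA was lower by more than footprints were. The median TE change of this list equalled that of the large-subunit genes at the precision printed, and its lower RPF median went with its lower RNA.

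Genes for factors that assemble the large subunit, and genes for the large subunit of the mitochondrial ribosome, did not show the shift as groups. Of the 28 assembly factors measured in RPF, 4 were called higher and 1 lower with a median of 0.06, and the median TE change was 0.03. NOP53, which helps in processing the precursor of ribosomal RNA, was called higher in TE at 1.26 (1.02 to 1.49), and BRIX1 lower in RPF at -1.42 (-1.77 to -1.1) with RNA reads of 165 and 43. SBDS, which releases eIF6 from the new subunit, had an RPF change of 0.86 (0.73 to 0.98) and an RNA change of 1.01 (0.87 to 1.14). Of 49 mitochondrial genes 6 were called higher and 7 lower in RPF, with a median of -0.03, and the median TE change was -0.10. MRPL24 had an RPF change of 1.42 (1.19 to 1.67) and MRPL23 of -1.46 (-1.73 to -1.20), a wider range than that of the cytosolic proteins. Both lists had TE levels above the typical gene in wild-type cells, with medians of 0.63 and 0.81.

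**Figure D5:**
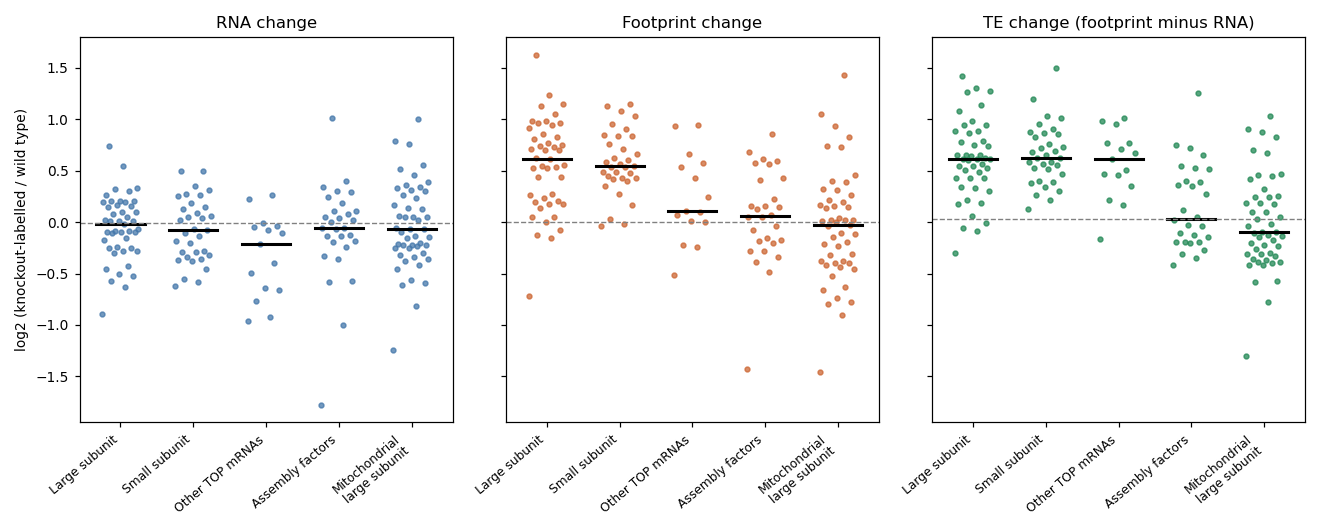
Log2 change in RNA, footprints and TE of single genes (points) with the median of each list (thick line) and of all genes measured (dashed line), for the large-subunit genes and the comparison lists. The RPF medians are 0.61 for the large subunit, 0.55 for the small subunit, 0.11 for other TOP mRNAs, 0.06 for assembly factors and -0.03 for mitochondrial large-subunit genes.

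Several large-subunit genes have a related copy elsewhere in the genome. RPL39L, a copy of RPL39 best known from male germ cells, had 427 and 329 RNA reads and 226 and 795 footprints, where an RPF change of 1.81 (1.60 to 2.03) came with a TE change of 2.04 (1.74 to 2.33). RPL22L1, the copy of RPL22, had 376 and 656 RNA reads and 248 and 967 footprints, with an RNA change of 0.95 (0.77 to 1.14) and an RPF change of 1.96 (1.76 to 2.17). RPL36AL had an RPF change of 1.22 (1.09 to 1.35). The RPL22 and RPL22L1 pair therefore differed: footprints of the copy were several times higher where those of RPL22 were slightly lower. RPL26L1, the copy of RPL26, had 161 and 215 RNA reads and 287 and 315 footprints. Its RNA change of 0.57 (0.27 to 0.87) had the direction of that of RPL26 but was not called. With an RPF change of 0.13 (-0.10 to 0.37) and a TE change of -0.43 (-0.81 to -0.06), it did not share the footprint and TE differences of RPL26. RPL7L1, a nucleolar relative of RPL7, had 10225 and 16608 RNA reads and 757 and 745 footprints and was called lower in TE at -0.87 (-1.02 to -0.72). RPL10L had only 36 and 88 footprints and was called higher in RPF at 1.28 (0.71 to 1.89) and in TE at 0.91 (0.30 to 1.51). RPL3L, a muscle gene, had 8 RNA reads in wild-type cells and 0 in the other libraries. Copies with near-identical coding sequence can share reads with their parent gene, so the values of these pairs are uncertain.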

How the data were processed

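Total RNA and ribosome footprints were sequenced from wild-type and knockout-labelled SW480 cells, 1 library each. Per the labels' protocols, footprints of 18 to 34 bases and RNA fragments of 18 to 50 bases were selected, with random identifiers of 4 and 5 bases in the linkers and 15 PCR cycles. The authors deposited raw, unscaled counts of reads, 1 whole number per gene and library. Per the submitters' processing notes, cutadapt 1.10, Bowtie 1.1.2, HISAT2 2.1.0 and GRCh38 were used. For their roles, the annotation, the counted region, reads with several matches and any collapsing of identifiers, the steps taken were not given in the sources used here.

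Libraries of a kind were scaled by the trimmed mean of M values in edgeR 4.0.16 (R 4.3.3), which gave a knockout-labelled to wild-type ratio of 0.900 for RNA and 1.00 for RPF. Log2 ratios used a prior count of 0.5 and exact conditional (Clopper-Pearson) 95% intervals, and TE intervals used the sum of reciprocal counts. Reads after PCR are not independent molecules, so intervals cover counting error only. A count of 0 allows up to 3 counts, 0.540 to 0.794 CPM. TE change has 0 residual degrees of freedom in 4 libraries and is a value, not a test. The remaining work was done with NumPy 2.4.6, pandas 2.3.3, SciPy 1.17.1 and matplotlib 3.10.9 under Python 3.11.15, and the scripts were tested on simulated data. Coordinates and lengths are from GENCODE 29, which held 19176 of the 19192 deposited transcripts.

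The members and the lists (7 role groups, small subunit, paralogs, other TOP mRNAs, assembly factors, mitochondrial large subunit, and markers of epithelium and of other cells) were chosen with earlier results of these data known. Named genes are any members, with full values for the 6 highest and 6 lowest per comparison by the interval bound nearest to no change and for 11 fixed members, up to 4 genes of each other list by the same ranking, and IGF2BP1. Genes named outside this rule were chosen after their values were seen. Alternatives were other scalings, minimum read numbers, thresholds and a larger prior count.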

Additional observations from a re-analysis of the deposited data

How the results depend on the processing

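No paired analysis was possible because each group has 1 library, and no library could be left out. The median RPF and TE changes of the large-subunit genes kept their sign under every scaling, minimum and prior count run, and none reversed. With calls at 2-fold, RPF had 5 higher and 0 lower (9.0% and 9.87% of all genes), and TE 6 higher and 0 lower (6.46% and 6.28%). RNA then had 0 higher and 0 lower (6.39% and 8.35%). With calls at the threshold below 1.5-fold, RNA had 3 higher and 7 lower (24.9% and 27.3% of all genes), RPF 30 higher and 1 lower (27.4% and 28.1%), and TE 36 higher and 0 lower (22.6% and 19.9%). The median TE level was -0.10 in wild-type and 0.44 in knockout-labelled cells without centring on all genes, and -0.39 and 0.12 among genes with at least 200 reads, since the genes it is set against change. Scaling by library totals changed the TE call of RPL24, relative log expression the RNA call of RPL23, and adding readthrough reads the TE call of RPL17. Added after seeing the data were the readthrough sums, levels per kilobase of transcript, where the SD of the wild-type log2 RPF level was 1.28 instead of 0.83, and levels without RPL41. Depth did not limit the member values; clone, culture and library effects were not measured with 1 library a group.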

Other observations

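The RefSeq windows from 250 bases before to 50 bases after the start were also searched on both strands for 4 promoter motifs, counted per gene over 38 large-subunit genes and 27305 genes in all. The ETS factor core CCGGAAG was found in 13 large-subunit genes (34.2%) and in 12.2% of all genes. The YY1 motif AAGATGG, whose letters can span a start codon, was in 5 (13.2%) and 7.11%. The GC box GGGCGG, bound by SP1, was in 21 (55.3%) and 48.3%, and the TATA box TATAAA in 3 (7.89%) and 14%. On the opposite strand CCGGAAG begins with pyrimidines and can overlap the run at the start. A match is a string of letters in a window, and no readout of factor binding is in these data.

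Across the 45 large-subunit genes the RPF change bore little relation to coding length, with a Pearson r of -0.10 and a Spearman rho of -0.08 on log2 length. Reads of the readthrough genes were close in direction to those of their partners: RPL17-C18orf32 had 682 and 1052 footprints and an RPF change of 0.62 (0.48 to 0.77), and RPL36A-HNRNPH2 had 889 and 1468 and 0.72 (0.60 to 0.84). The IMP family members IGF2BP2 and IGF2BP3 had RPF changes of 0.01 (-0.17 to 0.20) and 0.10 (-0.15 to 0.35), RNA changes of -0.09 (-0.23 to 0.05) and -0.41 (-0.68 to -0.15), and TE changes of 0.10 (-0.12 to 0.33) and 0.51 (0.15 to 0.86).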
